A study of Mus musculus with 8 samples.

Results

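The dynamin family of the embryonic mouse cortex was examined through 137 probe sets of an Affymetrix mouse exon array, out of 625534 on the array. A probe set is a small group of oligonucleotide probes that reads a short stretch of a transcript. The members were the 4 genes Dnm1 (33 probe sets), Dnm2 (26), Dnm3 (40) and Dnm1l (38), each followed through the probe sets annotated to its symbol alone. RNA from the cortex of 8 embryos at embryonic day 18.5 was measured, 1 array per embryo. The groups were 4 Ptbp2 knockout (KO) embryos and 4 wild type embryos, all of a mixed CD1 and C57BL/6 background and described in the series as biological replicates. Ptbp2 is the polypyrimidine tract binding protein of neurons, which represses or activates alternative exons. The part of Ptbp2 that was deleted, and whether it was deleted in all cells, is not given in the sources used here.

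Dynamins are large GTPases that assemble into helical collars around membrane tubes and cut them. Dnm1 is the main neuronal dynamin and pinches synaptic vesicles from the plasma membrane after transmitter release. Dnm2 is made in nearly all tissues and serves clathrin-mediated uptake and actin remodelling. Dnm3 is made mostly in brain and testis and is found at synapses, where it binds the scaffold protein Homer. Dnm1l, also called Drp1, is a more distant relative that divides mitochondria and peroxisomes. The Dnm1 transcript is alternatively spliced, with a mutually exclusive pair of exons in the middle domain of the protein and several ends at the carboxyl terminus. The positions of the probe sets in these exons were not used here, so the results are given by probe set and no exon is named.

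Values are log2 signals, on which 1 unit is a factor of 2. A probe set was kept if its mean over the 8 arrays reached 6.84, the median over the whole table, and 127 of the 137 members passed. All 33 of Dnm1 passed, with mean levels from 7.12 to 11.41, as did 25 of Dnm2 (7.97 to 10.58), 36 of Dnm3 (7.21 to 11.31) and 33 of Dnm1l (7.67 to 12.77). The 10 members under the filter were 1 of Dnm2 (5.81 to 6.78 on single arrays), 4 of Dnm3 (2.76 to 7.04) and 5 of Dnm1l (2.70 to 6.81), and they are not described further. The gene level on an array was the median over the kept probe sets of a gene. Usage was the log2 signal of a probe set minus that median on the same array, so it follows 1 stretch of the transcript relative to the rest. All differences are KO minus wild type. The genes were chosen by the KO minus wild type differences of their probe sets in usage and level, so these differences are given with standard errors (SE, moderated across the table by limma) and without a test.

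As a check of the labels, the Ptbp2 gene level was 6.24, 5.80, 5.54 and 6.22 in KO cortex and 11.40, 11.15, 11.08 and 11.16 in wild type cortex. It fell by 5.25 (SE 0.14, limma adjusted p = 1.7e-12), although the KO mean lies under the filter, so the size is not exact. Some arrays stood apart. The third KO array (KO 3) gave the lowest of the 8 values in 44 of the 127 members, or 34.6%, against 15.8% of all kept probe sets. The third wild type array was lowest in 11.8% of the members, against 19.3% of all kept probe sets. In the second KO array (KO 2), Ttr, the transthyretin gene of the choroid plexus, was at 9.36, while the other KO arrays had 13.18 to 13.34 and the wild type arrays 13.32 to 13.38. Among markers of the labelled tissue, Fezf2, Tbr1 and Bcl11b of cortical projection neurons were at 9.27 or above on every array.

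Dnm1 held 2 probe sets that differed in opposite directions between KO and wild type cortex. The log2 signal of probe set 5352752 was 8.33, 8.34, 7.90 and 8.39 in KO cortex, against 10.27, 9.91, 10.46 and 10.23 in wild type cortex. Its level averaged 8.24 ± 0.23 in KO and 10.22 ± 0.23 in wild type (SD, n = 4 each), a difference of -1.98 (SE 0.15). Every KO array lay well below every wild type array. Probe set 4616756 was the mirror image, with 9.33, 9.53, 9.29 and 9.71 in KO cortex and 8.64, 8.11, 8.40 and 8.68 in wild type cortex. Its level averaged 9.47 ± 0.19 in KO and 8.46 ± 0.26 in wild type (SD, n = 4 each), a difference of 1.01 (SE 0.15), again without overlap.

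Set against the rest of the gene, the 2 probe sets kept these directions. The usage of 5352752 was -1.62, -1.44, -1.76 and -1.59 in KO cortex and 0.18, -0.13, 0.32 and 0.18 in wild type cortex, a difference of -1.74 (SE 0.12). In wild type cortex its signal was therefore close to the median of the gene, and in KO cortex it was far under it. The usage of 4616756 was -0.63, -0.25, -0.37 and -0.27 in KO cortex and -1.46, -1.93, -1.73 and -1.37 in wild type cortex, a difference of 1.25 (SE 0.14). This probe set was under the gene median in both groups and nearer to it in KO cortex.

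The signal of 4616756 minus that of 5352752 was 1.00, 1.20, 1.39 and 1.31 in KO cortex and -1.63, -1.80, -2.06 and -1.55 in wild type cortex. The order of the pair was thus turned round on every array, with means of 1.22 ± 0.17 in KO and -1.76 ± 0.22 in wild type (SD, n = 4 each) and a difference of 2.99. Signals of different probe sets depend on their own probes, so the sign of this value within an array does not show which stretch was the more abundant. Over 15 alternative settings, which include leaving out each array and the third array of both groups, the usage difference of 5352752 lay between -1.83 and -1.62 and that of 4616756 between 1.14 and 1.33. Some of the 15 change only the SE and cannot move a difference. Without KO 2 they were -1.79 and 1.20, and without KO 3 they were -1.69 and 1.24.

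**Figure D1:**
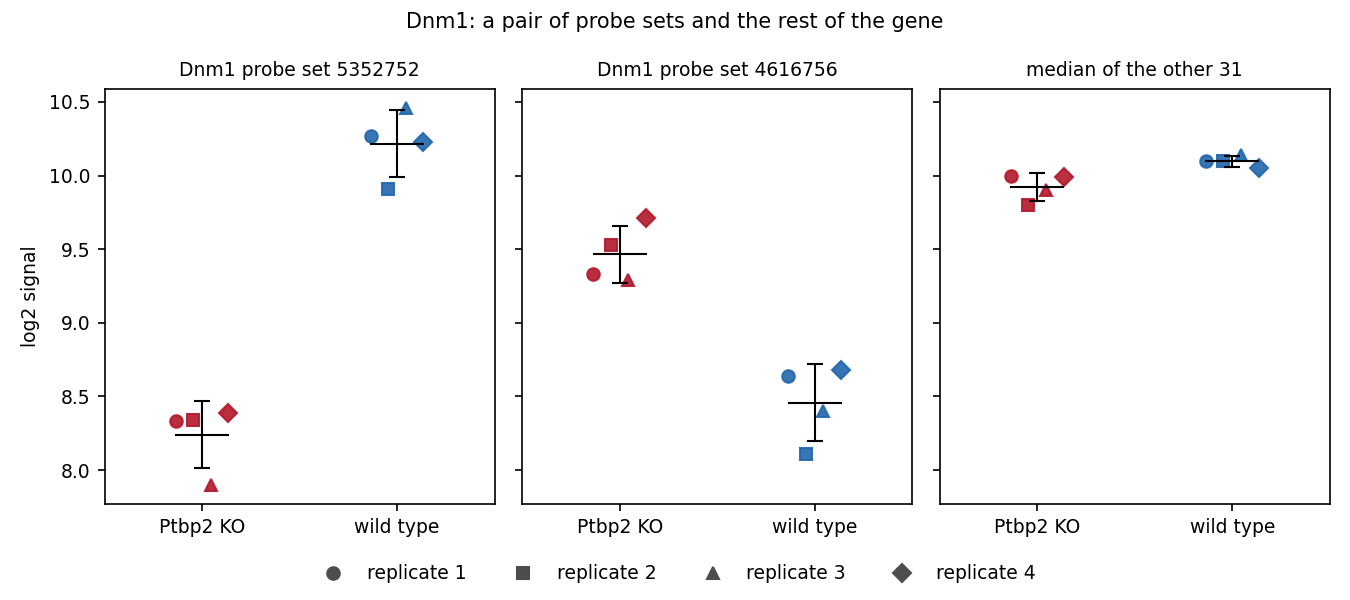
Log2 signal (vertical axis) of Dnm1 probe sets 5352752 and 4616756 and of the median over the other 31 Dnm1 probe sets in 4 Ptbp2 KO and 4 wild type cortices. Points are single arrays, marked by replicate number, and bars are the mean ± SD. Probe set 5352752 averages 8.24 in KO and 10.22 in wild type, 4616756 averages 9.47 and 8.46 in the same order, and the rest of the gene 9.92 and 10.1.

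The other 31 Dnm1 probe sets stayed far closer to one another. Their usage differences ran from -0.16 to 0.47 with a median of 0.10. The median signal over these 31 averaged 9.92 ± 0.094 in KO and 10.1 ± 0.035 in wild type cortex (SD, n = 4 each), a difference of -0.17. In this median all 4 KO arrays lay below the wild type arrays. Most of the gene was therefore slightly lower in KO cortex, by far less than the pair moved apart.

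After the pair, the Dnm1 probe set with the highest usage difference was 4421066, at 0.47 (SE 0.18). Its signal was 7.35, 7.70, 7.93 and 7.63 in KO cortex and 7.22, 7.42, 7.63 and 7.40 in wild type cortex, so the groups overlapped. This is one of the dimmest Dnm1 probe sets, with a usage of -2.19 ± 0.37 in KO and -2.66 ± 0.15 in wild type (SD, n = 4 each). Next came 5340607, with a usage difference of 0.26 (SE 0.13), and 5274876, with 0.25 (SE 0.13). Both were nearly level in signal, at 9.28 ± 0.19 in KO and 9.26 ± 0.19 in wild type for 5340607, and at 10.81 ± 0.13 in KO and 10.80 ± 0.12 in wild type for 5274876. Their positive usage difference therefore went with a lower gene median in KO cortex, and without KO 3 it was 0.15 and 0.16.

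On the lower side, 4509959 followed 5352752 with a usage difference of -0.16 (SE 0.090). Its signal was 9.55, 9.29, 9.28 and 9.44 in KO cortex and 9.85, 9.60, 9.83 and 9.91 in wild type cortex, a level difference of -0.40 (SE 0.12) without overlap. The usage differences of the remaining pair on that side were near 0, at -0.08 (SE 0.13) for 4605461 and -0.06 (SE 0.093) for 5255766, and turned to 0.01 without KO 1 and without KO 3 in that order. In level 5255766 was at 11.03, 10.90, 10.47 and 10.99 in KO cortex and 11.26, 11.10, 11.12 and 11.09 in wild type cortex. KO 3 was the lowest array for all 3 of these probe sets, and for 18 of the 33 in Dnm1.

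**Figure D2:**
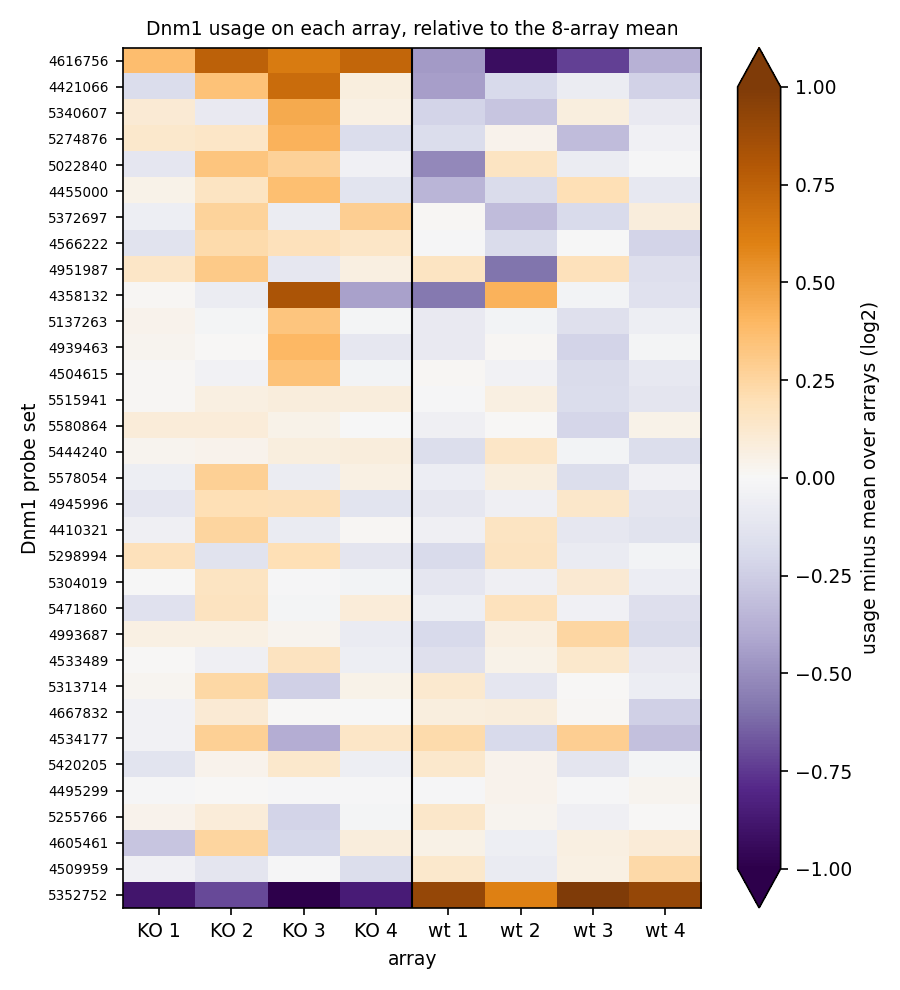
Usage of the 33 Dnm1 probe sets (rows) on the 8 arrays (columns, KO at the left and wild type at the right), each minus its mean over the arrays, in log2 units with colours cut at 1 either way. Probe sets 5352752 and 4616756 have opposite colours in every array of each group, and single arrays of other rows, such as KO 3 for 4358132 and 4421066, are as strong without separating the groups.

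In the whole table, 21 of 195622 probe sets were called in usage at an adjusted p of 0.05 (0.0107%), and the members called were 1 of 127, probe set 5352752. By limma diffSplice, which measures a probe set relative to the remainder of the gene with 1 spread for all of them, 0.216% of all probe sets and 2 members, the pair, were called. In level the pair were also the 2 members called, against 0.0921% of all kept probe sets. These counts use the contrast that chose the members, so nothing is read from them. A usage difference beyond 0.5 either way was seen in 1.03% of all probe sets and in 2 of the 127 members, both of Dnm1. The distance between the highest and the lowest usage difference within a gene was 2.99 in Dnm1, the second of 12960 genes after Ptbp2 itself (6.53) and before Myt1l (2.70), where the median gene had 0.483.

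The other 3 genes showed no probe set of comparable size. The same distance was 0.643 in Dnm2, 0.711 in Dnm3 and 0.698 in Dnm1l, which placed them at ranks 3040, 2123 and 2277. A gene with more kept probe sets tends to have a larger distance. The ranks, that of Dnm1 included, and the value of the median gene do not allow for this. The median size of the usage difference, sign ignored, was 0.12 in Dnm2, 0.09 in Dnm3 and 0.15 in Dnm1l, beside 0.11 in Dnm1. For most of its probe sets, Dnm1 was thus within the range of its relatives.

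**Figure D3:**
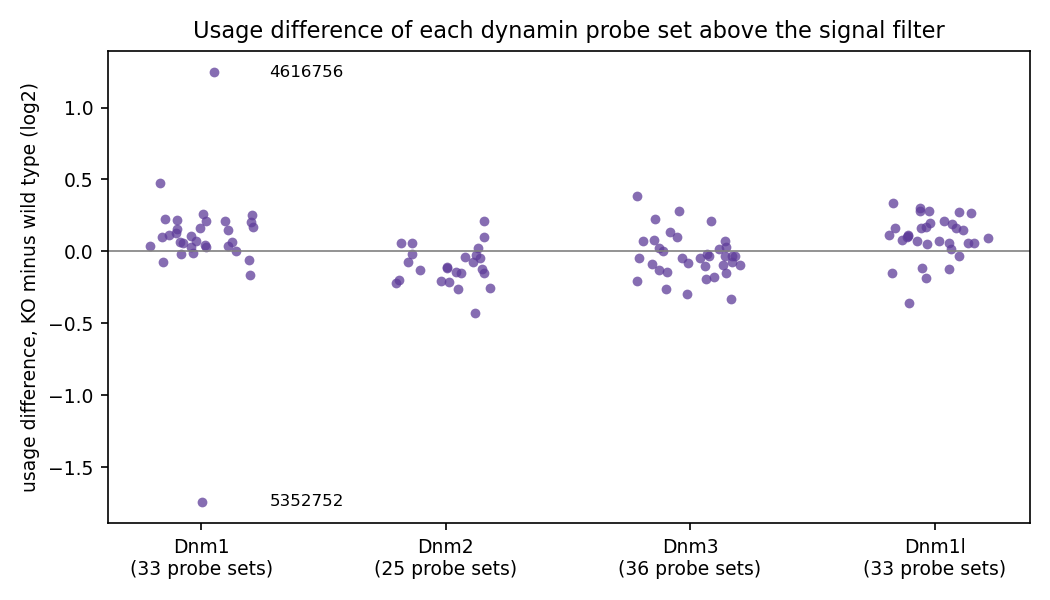
Usage difference (KO minus wild type, log2, vertical axis) of each of the 127 dynamin probe sets above the signal filter, by gene. Each point is 1 probe set. Dnm1 5352752 at -1.74 and 4616756 at 1.25 lie apart, while the Dnm2, Dnm3 and Dnm1l probe sets lie between -0.43 and 0.38.

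In Dnm2, the dynamin of general endocytosis, 5 probe sets had higher and 20 lower usage in KO cortex. Such counts, here and for the next genes, depend on how the gene median itself differed. They do not show a broad change in usage, and Dnm1 had 26 higher and 7 lower. The lowest was 5282902, with 7.64, 8.12, 7.18 and 8.39 in KO cortex and 8.55, 8.18, 8.21 and 7.84 in wild type cortex, and a usage difference of -0.43 (SE 0.26). The groups overlapped widely, and the KO arrays alone spanned more than the difference. For 4877846 the usage difference was -0.26 (SE 0.16), with 8.38, 8.63, 8.56 and 8.32 in KO cortex and 8.09, 9.09, 8.64 and 8.83 in wild type cortex. On the higher side 5581762 had 0.21 (SE 0.15) and 4968611 had 0.10 (SE 0.14), both with overlapping groups. These values moved when single arrays were left out. Without KO 3, 5282902 was at -0.25 and 5581762 at 0.07, and without wild type 1, 5282902 was at -0.27, 4877846 at -0.41 and 4968611 at 0.02. Without wild type 2, 4877846 was at -0.16, and 4968611 was at -0.00 without KO 1, 0.20 without KO 2 and 0.16 without wild type 4. Probe set 4461627 was the only one of Dnm2 whose usage did not overlap between groups, and it was lower in KO cortex. Probe sets 4461627 and, in Dnm1, 5137263 joined the Dnm1 pair as the 4 of 127 members whose usage did not overlap, against 2.92% of all probe sets.

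In Dnm3, the dynamin that binds Homer at synapses, 13 probe sets had higher and 23 lower usage. The highest was 4679937, a dim probe set with 7.31, 7.26, 7.56 and 7.37 in KO cortex and 6.94, 7.21, 7.17 and 6.95 in wild type cortex. Its signal did not overlap between groups, but its usage did, with a difference of 0.38 (SE 0.14). Probe set 5258709 had a usage difference of 0.28 (SE 0.17). The lowest were 4442215, at -0.33 (SE 0.14), and 5417970, at -0.30 (SE 0.16). For 4442215 the signal was 10.07, 9.82, 9.54 and 10.02 in KO cortex and 10.52, 10.06, 10.38 and 10.12 in wild type cortex, with KO 1 above the second wild type array. The low value of 5417970 came with KO 3, which had 8.39 where the other KO arrays had 9.11 to 9.19 and the wild type arrays 9.10 to 9.72. Without KO 3 its usage difference was -0.14 and that of 5258709 was 0.17, and without wild type 1 the second was 0.16.

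In Dnm1l, the mitochondrial dynamin, 27 probe sets had higher and 6 lower usage. The gene median differed by -0.09, while the median level difference of its probe sets was 0.01, so the count follows the reference. The lowest was 5410553, with 11.04, 11.18, 10.40 and 11.36 in KO cortex and 11.72, 11.30, 11.35 and 11.42 in wild type cortex, and a usage difference of -0.36 (SE 0.12). Only the fourth KO array reached the wild type range. The highest was 5024811, with 11.78, 11.91, 11.87 and 11.73 in KO cortex and 11.65, 11.72, 11.27 and 11.66 in wild type cortex. Its signal did not overlap between groups, and its usage difference was 0.34 (SE 0.14) with overlap. Probe sets 4789570, at 0.30 (SE 0.17), and 5380405, at -0.19 (SE 0.22), overlapped in both measures. Without KO 3 the usage differences of 4789570, 5024811 and 5380405 were 0.14, 0.21 and -0.06. Without wild type 1 that of 5380405 was -0.04, and without KO 4 it was -0.39. The 295 recomputed usage differences of the 20 dynamin probe sets given with one here were within 1 SD between replicates, a spread that for the small differences exceeds the difference itself. Some of the 295 come from settings that cannot move a difference.

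At the level of the whole gene the differences were small. Dnm1 was at 9.95, 9.78, 9.66 and 9.98 in KO cortex and 10.10, 10.05, 10.14 and 10.05 in wild type cortex. The means were 9.84 ± 0.15 in KO and 10.08 ± 0.04 in wild type (SD, n = 4 each), a difference of -0.24 (SE 0.095). All 4 KO arrays lay below the wild type arrays, as was the case for 1.97% of all genes, and the wild type arrays were far tighter than the KO arrays. The difference was -0.18 without KO 3, -0.16 without the third array of both groups and -0.17 without the pair of probe sets, the last of these added after the data were seen.

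Dnm2 was at 9.33, 9.32, 9.18 and 9.30 in KO cortex and 9.10, 9.33, 9.10 and 9.32 in wild type cortex, a difference of 0.07 (SE 0.094) that was -0.03 when the mean of the probe sets replaced the median. Dnm3 was at 9.66, 9.57, 9.40 and 9.40 in KO cortex and 9.74, 9.70, 9.47 and 9.43 in wild type cortex, a difference of -0.08 (SE 0.10). With the filter at the 75th percentile of probe set means the Dnm3 difference was -0.25. Dnm1l was at 11.04, 11.18, 10.66 and 11.14 in KO cortex and 11.27, 11.09, 10.84 and 11.19 in wild type cortex, a difference of -0.09 (SE 0.13). Without KO 3 it was 0.03. The KO and wild type arrays of these 3 genes overlapped, and none of the 3 differences was larger than its SE. Levels of different genes come from different probes and are not compared with each other.

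**Figure D4:**
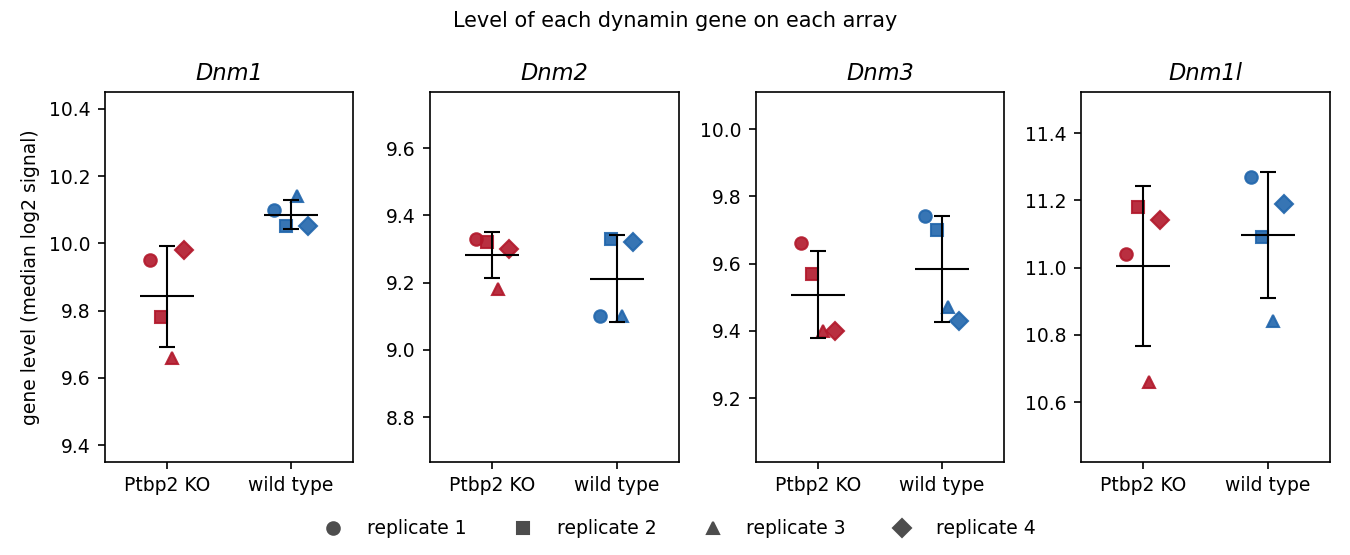
Gene level (median log2 signal, vertical axis) of Dnm1, Dnm2, Dnm3 and Dnm1l in 4 Ptbp2 KO and 4 wild type cortices. Points are arrays marked by replicate number, bars are the mean ± SD, and every panel spans the same number of log2 units. Dnm1 lies lower on all KO arrays, by 0.24 on average, and the groups of the other 3 genes overlap.

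Single probe sets were also counted by the direction of their level. In Dnm1, 29 of 33 were lower in KO cortex, with a median difference of -0.14, and in Dnm3, 29 of 36, with a median of -0.12. In Dnm2, 16 of 25 were lower (median -0.05), and in Dnm1l, 14 of 33 (median 0.01). In Dnm2 and Dnm1l these medians had the opposite sign to the gene level, and all 4 values were small. Of all kept probe sets 44.4% were lower. Without overlap between groups were 10 of the 127 members, against 4.24% of all kept probe sets. Of these 10, 7 belonged to Dnm1, 6 of them lower (1.51% of all kept probe sets) and 4616756 higher (2.73%). Probe sets of 1 gene share their arrays and transcripts and are not independent of each other.

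Lists of cell type markers were set beside the Dnm1 level. In a list of markers of neuronal maturation, 8 of the 9 measured were lower in KO cortex, with a median difference of -0.24 and a mean over the list of 10.42 to 10.61 on KO arrays and 10.62 to 10.93 on wild type arrays. Of the 9, 5 had an unadjusted p under 0.05 by limma, as did 6.49% of all genes. In the list 1 gene passed the test, and 0.116% of all genes did. This was Snap25, a SNARE that fuses synaptic vesicles with the membrane, with 10.12, 10.08, 10.19 and 9.82 in KO cortex and 11.14, 10.91, 10.65 and 10.89 in wild type cortex. It fell by 0.84 (SE 0.11, limma adjusted p = 0.0048, from 0.00089 to 0.044 over 15 alternatives). All 5 markers of the striatum, which borders the cortex, were lower, with a median of -0.47 and list means of 8.49 to 8.83 on KO arrays and 9.05 to 9.31 on wild type arrays. None of these passed (smallest adjusted p = 0.085), and 5 had an unadjusted p under 0.05. Single alternatives took Ppp1r1b, Penk or Tac1 past the threshold (smallest adjusted p = 0.012). Markers of cortical projection neurons, 5 measured, had 3 higher and 2 lower (median 0.03), with list means of 10.25 to 10.40 in KO and 10.07 to 10.46 in wild type cortex. All 5 markers of the oligodendrocyte lineage were lower (median -0.09), as were all 4 of the choroid plexus (median -0.50, list means of 7.42 to 9.47 on KO arrays and 9.34 to 9.38 on wild type arrays). In the choroid plexus list KO 2 stood apart, with Ttr at 9.36 and Clic6 at 6.14. The other KO arrays had 13.18 to 13.34 for Ttr and 7.70 to 8.19 for Clic6. Both measured microglial markers were higher (list means of 7.96 to 8.16 on KO arrays and 7.73 to 7.91 on wild type arrays), and 0 genes of these 3 lists passed, with 1 of each at an unadjusted p under 0.05. Progenitors had 5 higher and 2 lower, astrocytes 1 higher and 3 lower, endothelium 3 higher, and the 1 measured erythroid marker was higher, again with 0 passed and, at an unadjusted p under 0.05, 1 astrocyte gene. The part of these cell type differences in the Dnm1 level was not tested. In tissue, fewer cells of a type and less RNA per cell cannot be told apart.

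The probe sets most like Dnm1 5352752 were then sought among 195089 probe sets of tested genes, by Pearson's r of usage over the 8 arrays, 1 probe set per gene. As the 8 arrays fall into 2 separated groups, r mainly reflects which probe sets differ between the groups in the same direction. Highest were Hecw1 4317454 (0.987), Abi2 4855890 (0.987), Ralgps2 5517785 (0.982), 3010001F23Rik 4411258 (0.981) and Masp1 5084572 (0.980). Of these, Abi2, which encodes a subunit of the WAVE actin regulator, also followed 5352752 within the groups (r of deviations from the group means 0.77), with 9.85, 9.53, 9.17 and 9.55 in KO cortex and 11.04, 10.50, 10.94 and 10.85 in wild type cortex. Lowest were Pum2 5466394 (-0.990), Atrnl1 5481756 (-0.987), Ppp4r3a 4600416 (-0.987), Ptbp2 4698759 (-0.986) and Camk2b 5328567 (-0.985). Of these, Atrnl1, Ppp4r3a and Ptbp2 overlapped between groups in signal, as did Ralgps2 among the most alike. Within the groups r was -0.70 for Pum2, -0.76 for Atrnl1, -0.83 for Ppp4r3a, -0.25 for Ptbp2 and -0.77 for Camk2b. The probe sets named here, Abi2 included, were picked by r over the same 8 arrays, so nothing is read from r within the groups. Ptbp2 4698759 averaged 8.35 in KO and 8.15 in wild type cortex, so its usage difference of 5.45 is that of the lower Ptbp2 gene median. Pum2, an RNA-binding translational repressor, was at 10.35, 10.32, 10.24 and 10.46 in KO cortex and 9.36, 9.30, 9.08 and 9.30 in wild type cortex. Within Dnm1, 4616756 had an r of -0.920 with 5352752, but 0.49 within the groups. Both have the same gene median subtracted on each array, which can raise the value within the groups. It therefore does not show whether the 2 stretches were opposed over single arrays of 1 group.

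The genes Dnm1, Dnm2 and Dnm3 share a feature of position that the choice of members did not use. In the RefSeq annotation of assembly GRCm38.p6, each of them overlaps a microRNA hairpin of the miR-199 family. Dnm1 also overlaps the hairpin of miR-3154 and Dnm3 that of miR-214, all on the opposite strand, while Dnm1l overlaps none. A microRNA is a short RNA that represses transcripts matching its seed. The mature sequences from RefSeq are given with the seed, bases 2 to 8, in capitals. The copies of miR-199a and miR-199b show the same 3p sequence in all 3 dynamin genes.
mmu-miR-199b-3p (Dnm1, chr2:32318524-32318545, plus strand): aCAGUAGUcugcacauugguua
mmu-miR-199a-3p (Dnm2, chr9:21496498-21496519, minus strand): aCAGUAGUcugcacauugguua
mmu-miR-199a-3p (Dnm3, chr1:162217883-162217904, plus strand): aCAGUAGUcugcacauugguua
mmu-miR-199a-5p (Dnm3, chr1:162217844-162217866, plus strand): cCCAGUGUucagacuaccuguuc
mmu-miR-214-3p (Dnm3, chr1:162223438-162223459, plus strand): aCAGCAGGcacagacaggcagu
No probe set was named to these hairpins, so their level was not measured. Dnm3os, the opposite-strand transcript of the Dnm3 locus that carries Mir199a-2 and Mir214, had 11 probe sets, of which 2 passed the filter. Probe set 4480024 was at 7.12, 7.26, 6.99 and 7.20 in KO cortex and 7.08, 7.28, 7.25 and 7.21 in wild type cortex (difference -0.06, limma adjusted p = 0.93). Probe set 5219869 averaged 6.73 ± 0.41 in KO and 7.35 ± 0.32 in wild type cortex (SD, n = 4 each), with overlap (difference -0.62, limma adjusted p = 0.54). Neither passed the test, and the KO mean of 5219869 lies under the filter. Among the Dnm3os probe sets under the filter, which were not tested, only 5569663 did not overlap between groups. It was higher in KO cortex, at 5.77, 6.11, 5.94 and 5.55, against 4.84, 5.38, 4.99 and 4.79 in wild type cortex.

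Genes that work with the dynamins were compared next, in 9 lists of 122 genes, of which 112 were measured. None passed the test in level by limma (smallest adjusted p = 0.70), and 6 had an unadjusted p under 0.05, a share of 5.36% beside 6.49% of all genes. There were 56 higher and 56 lower (49% of all genes were lower), from -0.27 to 0.25 and with a median near 0 (0.0014, beside 0.0027 for all genes). In usage, 0 of 2199 probe sets passed by the splicing index (smallest adjusted p = 0.19), 96 had an unadjusted p under 0.05, which is 4.37% beside 5.28% of all, and diffSplice called 6. These 6 are 0.273% of the list probe sets, near the 0.216% of all probe sets, and with 1 array left out the count ran from 2 (without KO 1 or wild type 4) to 15 (without KO 2).

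Among 23 measured genes listed together as BAR and SH3 partners of dynamin, such as amphiphysins, endophilins and intersectins, 13 were higher and 10 lower (median 0.009). The lowest was Syn1, a synaptic vesicle phosphoprotein, with 10.07, 10.01, 9.72 and 9.74 in KO cortex and 10.18, 10.09, 10.25 and 10.12 in wild type cortex (difference -0.27, SE 0.10, adjusted p = 0.70). Next was Arhgap26, a BAR domain protein of endocytosis, with a difference of -0.21 (SE 0.093, adjusted p = 0.75). Both were lower by similar amounts to Dnm1, and neither passed. Of 20 clathrin coat and adaptor genes, 8 were higher and 12 lower (median -0.02), with Eps15 (-0.13), Snap91 (-0.13) and Clta (0.12) at the smallest p. Of 11 genes of vesicle uncoating and phosphoinositides, 4 were higher and 7 lower (median -0.05), led by the lipid kinase Pip5k1b (-0.22). Of 14 kinases and phosphatases that act on dynamin, 6 were higher and 8 lower (median -0.06), led by Cdk5r2, an activator of the kinase Cdk5 that phosphorylates Dnm1 (-0.23, SE 0.099, adjusted p = 0.75). None of these lists held a gene that passed.

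Of 8 synaptic scaffold genes that join Dnm3 through Homer and Shank, 4 were higher and 4 lower. The postsynaptic scaffold Dlg4 was at 11.44, 11.37, 11.31 and 11.36 in KO cortex and 11.24, 11.17, 10.87 and 11.19 in wild type cortex (difference 0.25, SE 0.098, adjusted p = 0.72). Its groups did not overlap, and it did not pass. Shank1 was at -0.21 (SE 0.094, adjusted p = 0.76) with overlapping groups.

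For the partners of Dnm1l, 16 mitochondrial fission genes had 11 higher and 5 lower (median 0.02), 10 fusion genes had 5 in each direction, and 7 peroxisome division genes had 4 higher and 3 lower. The fusion gene with the smallest p was Pld6, a mitochondrial phospholipase (-0.22, SE 0.11, adjusted p = 0.77). Acbd5, a peroxisomal tether, led the peroxisome list (-0.16, SE 0.10, adjusted p = 0.86), and Cdk1, which phosphorylates Dnm1l in mitosis, the fission list (0.15, SE 0.098, adjusted p = 0.87). Relatives of the dynamin superfamily, 10 measured, had 5 in each direction, with Atl3, an atlastin of the endoplasmic reticulum, at 0.18 (SE 0.092, adjusted p = 0.80). No level of these genes passed either.

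A single probe set of Mfn2, a mitofusin of the outer mitochondrial membrane, was higher in KO cortex. Probe set 5205895 was at 8.90, 8.46, 8.70 and 8.61 in KO cortex and 7.81, 7.84, 7.79 and 7.88 in wild type cortex. Its groups were far apart, with a usage difference of 0.79 (SE 0.11). By the splicing index it did not pass (adjusted p = 0.19, from 0.043 to 0.92 over 14 alternatives), and by diffSplice it was called (0.83, adjusted p = 1.5e-08) and stayed called whichever array was left out (largest adjusted p = 6.5e-05). A probe set of Mff, the mitochondrial receptor that recruits Dnm1l, was also called by diffSplice (0.62, adjusted p = 0.0057) but not by the splicing index (usage difference 0.68, SE 0.19, adjusted p = 0.92, from 0.48 to 1.0 over 15 alternatives). Mff 4756415 was at 9.15, 8.73, 9.08 and 9.08 in KO cortex and 8.41, 7.90, 8.69 and 8.33 in wild type cortex. The groups did not overlap in signal but did in usage, and the diffSplice call was lost without KO 1, wild type 2 or wild type 4 (adjusted p up to 0.17). A second Mff probe set, 4701938, had 9.64, 9.49, 9.76 and 9.44 in KO cortex and 9.02, 8.89, 9.17 and 9.04 in wild type cortex, with a usage difference of 0.55 (SE 0.13, adjusted p = 0.86). It did not overlap in either measure and passed neither test, with a diffSplice adjusted p of 0.094.

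**Figure D5:**
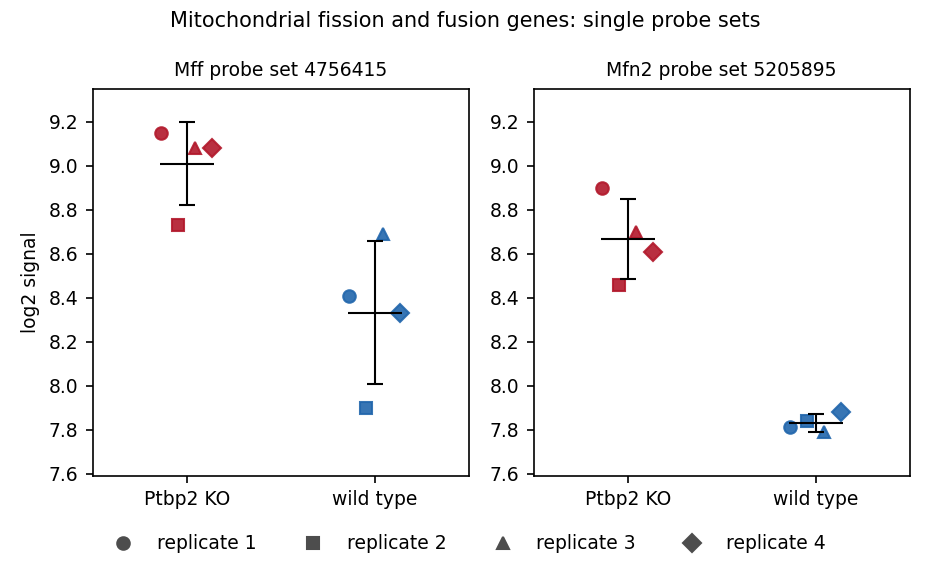
Log2 signal (vertical axis) of Mff probe set 4756415 and Mfn2 probe set 5205895 in 4 Ptbp2 KO and 4 wild type cortices. Points are arrays marked by replicate number and bars are the mean ± SD. The KO arrays lie above the wild type arrays in both panels, at 9.01 against 8.33 for Mff and 8.67 against 7.83 for Mfn2.

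The other 4 diffSplice calls were lower in KO cortex. None of the 4 passed by the splicing index (adjusted p = 0.92 for each). Hip1r 4870915, of a protein that links clathrin to actin, had -0.87 (adjusted p = 6.9e-05, called whichever array was left out) with overlapping groups and a KO mean of 6.76, under the filter. Snap91 5210981, of a neuronal clathrin assembly protein, had -0.62 (adjusted p = 0.022), with KO 3 at 8.82 where the other KO arrays had 9.95 to 10.34 and the wild type arrays 10.27 to 10.70. Pi4ka 5167626, of a phosphoinositide kinase, had -0.51 (adjusted p = 0.032), and Syn1 5212319 had -0.57 (adjusted p = 0.047). The Snap91 and Pi4ka calls were each lost without KO 1, KO 3, wild type 1, wild type 3 or wild type 4 (adjusted p up to 1.0 and 0.55), and the Syn1 call without these or KO 2 (up to 0.58).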

How the data were processed

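Total RNA from 8 cortices was extracted with Trizol and labelled for Affymetrix whole transcript arrays, per the labels' protocols. The authors deposited log2 signals per probe set. The submitters' processing notes name the tools RMA and Affymetrix Expression Console and the build mm9, without versions or roles. RMA equalises the distribution of signals between arrays and compresses low signals, so changes in total RNA are not seen. Array medians of the deposited log2 values were 6.82 to 6.93, and every array differed from the others. Arrays carry no count depth, so precision is set by their number.

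Of 625534 probe sets, 303629 had 1 gene symbol in the platform annotation, 5892 several and 316013 none. Of 21634 symbols, 17657 were current in RefSeq (GRCm38.p6) and 3919 were updated. No member probe set had several symbols. The filter at 6.84 left 312767 probe sets. A gene needed at least 4 of them, which gave 12960 genes and 195622 probe sets in usage, of which 406 equalled their gene median on every array. Levels and usage (the splicing index) were fitted in R 4.3.3 without covariates, by lmFit followed by eBayes (limma 3.58.1), with Benjamini-Hochberg adjustment over all features at 0.05, and an adjusted p in the text is from limma. The fits were tested on simulated arrays.

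The members and the lists were chosen with earlier results of these data known. The text names, for Dnm1, the 4 probe sets with the highest and the 4 with the lowest usage difference, and for the other members 2 of each. From each list it takes genes and probe sets past the threshold, and otherwise draws on the 3 genes and 2 probe sets with the smallest unadjusted p. Dnm3os, Ttr, the probe sets called by diffSplice, and probe sets 4461627 and 5137263 were named after their values were seen. Lists of progenitors, astrocytes, oligodendrocyte lineage, microglia, endothelium, choroid plexus and erythroid cells were also fitted.

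Alternatives were no filter, a filter at the 75th percentile, quantile normalization, the mean in place of the median, eBayes with trend and robust, diffSplice, a threshold of 0.10, each array left out, the third array of both groups left out, and the replicate number as a block. Trend and robust and the replicate block change the SE and p of a difference but not its size. Deviations from the group means correlated between same-numbered arrays at 0.25, 0.00, 0.03 and 0.17, so the numbers are not shown to pair the embryos.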

Additional observations from a re-analysis of the deposited data

Results flagged for a closer look

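Within a group of 4 arrays, 1 array lay far from the other 3 in 5 of the 126 groups examined. These covered the gene levels of Ptbp2 and the dynamins, and the usage of the dynamin probe sets given with a usage difference. They also covered levels of the named genes of the partner, neuronal maturation and striatum lists, and signals of list probe sets called by diffSplice. The other marker lists, which include Ttr, were not examined. Chance gives about 1 in 20. Ehd2, a membrane-remodelling ATPase, was at 7.94 in KO 2 and at 8.23 to 8.24 on the other KO arrays. Mff probe set 4756415 was at 8.73 in KO 2 and at 9.08 to 9.15 on the other KO arrays. Arhgap26 was at 8.35 in wild type 4, against 8.55 to 8.59 on the other wild type arrays. Ppp3cc, a catalytic subunit of calcineurin, the phosphatase that acts on Dnm1, was at 9.22 in wild type 1, against 8.97 to 8.99 on the others. Pld6 was at 9.59 in wild type 3, against 9.84 to 9.88 on the others. None of the 5 was a dynamin gene level or the usage of a dynamin probe set. The signals of the dynamin probe sets were not examined in this way, and in some of them KO 3 stood apart. For Dnm1 5352752 it was at 7.90, against 8.33 to 8.39 on the other KO arrays. For Dnm3 5417970 it was at 8.39, against 9.11 to 9.19.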

How the results depend on the processing

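Of the dynamin gene levels, only Dnm3 moved by more than the spread between arrays, to -0.25 with the filter at the 75th percentile. With 1 array left out, the differences ran from -0.28 to -0.18 for Dnm1, 0.03 to 0.11 for Dnm2, -0.13 to -0.03 for Dnm3 and -0.18 to 0.03 for Dnm1l. Counts over the whole table depended on the settings. Genes called in level numbered 15, but 7 with no filter, 25 with the 75th percentile filter, 24 with quantile normalization, 37 with the mean, 9 without KO 3 and wild type 3 together and 7 to 15 with 1 array left out. Probe sets called in level numbered 288, but 152 with no filter, 461 with trend and robust, 109 without KO 3 and wild type 3 and 132 to 286 with 1 array left out. Probe sets called in usage numbered 21, but 8 with no filter, 39 with the mean, 35 with trend and robust, 422 with diffSplice, 33 at a threshold of 0.10, 1 without KO 3 and wild type 3, 7 to 14 with 1 array left out and 32 without the 406 probe sets equal to their gene median, a setting chosen after seeing the data. With the replicate block, usage gave 1 call and probe set levels 187, and the numbers are not shown to pair the embryos. Among list probe sets the usage count of 0 became 6 with diffSplice (2 to 15 with 1 array left out) and 1, Mfn2 5205895, with the mean. DiffSplice without each array in turn was also chosen after seeing the data. Small levels of list genes turned sign. With the 75th percentile filter Pacsin2 was 0.04, Spire1 -0.03 and Mfn1 0.03, and with the mean Mtfr2 was -0.04 and Mfn1 0.08. With 1 array left out, Gdap1 ran from -0.19 to 0.01 (without KO 3), Mfn1 from -0.10 to 0.03 (without wild type 1), Mfn2 from -0.00 (without wild type 2) to 0.09 and Pex19 from -0.02 (without wild type 3) to 0.17. The causes of these differences were not tested. Signals near the filter are compressed, so differences of dim probe sets are limited by background.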
